A study of Rattus norvegicus with 5 samples.

Results

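The genes described are the carriers and pumps that move organic anions, organic cations and drugs across cell membranes, in proximal tubular cells of diabetic rats kept with or without C-peptide. They were taken by family name: the Slc22, Slc17 and Slc47 carriers, the Slco carriers, known as OATPs for organic anion transporting polypeptides, and the Abcb, Abcc and Abcg pumps. A gene counted where a probe set of the array carried its symbol alone and that symbol ended at its number, or began with Slco and a digit. This gave 60 of the 14506 genes that the array names in this way, each read from its brightest probe set. The rule used no difference between the groups.

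The proximal tubule clears drugs, toxins and waste anions from blood into urine in 2 steps. Carriers of the blood-facing, basolateral membrane such as Slc22a6 and Slc22a8 take up organic anions in exchange for dicarboxylates, and Slc22a2 takes up organic cations along the membrane potential. Carriers and ATP-driven pumps of the urine-facing, apical membrane then release them, among them Slc47a1 for cations and the Slc17 carriers, Abcc2, Abcc4 and Abcg2 for anions, while Slc22a12 runs the other way and takes urate back from the urine.

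The cells were isolated from the kidney of Sprague-Dawley rats whose phenotype is type I diabetes, so that every array carries that disease and no non-diabetic cells stand beside them. The sources used here do not give how the diabetes was brought about. Of the 5 arrays, 3 were from animals whose cells received C-peptide, the peptide cut out of proinsulin, and 2 were from animals whose cells were left untreated, with a 2 h incubation in both groups. Nothing says whether the same animal number in both groups is 1 animal. The comparison asks which transcripts differ early after C-peptide.

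Each array gave 29215 probe-set intensities, with array medians from 60.1 to 95.9 as deposited, and the arrays were therefore brought to 1 distribution by quantile normalisation. Intensities below are normalised values on the linear scale. Differences are C-peptide minus untreated on the scale log2(intensity + 16) with their standard error (SE), and folds are on that scale, which understates the change of dim probe sets. Proximal tubule markers from outside the transporter families were present, with 23 of 24 measured and all 23 brighter than the median probe set. They included Lrp2, the endocytic receptor megalin, at 2248 ± 211 (SD, n = 2) in untreated and 3989 ± 880 (SD, n = 3) in C-peptide cells. Aqp1, the water channel, was at 1203 ± 139 and 1784 ± 139, and Slc5a2, the glucose carrier of the early tubule, at 1133 ± 47.8 and 1513 ± 473. Markers of endothelial cells, which line vessels, were also present: each of the 11 measured was brighter than that median and none was at 0 on any array. In untreated cells their means ran from 321 for Plvap to 5172 for Emcn. Of 8 measured thick limb and distal tubule markers 7 were brighter than that median, with untreated means from 21.4 for Pvalb to 5444 for Umod.

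Over the whole set, 41 of the 60 transporter genes had a difference above 0 and 19 below, with a median of 0.19 beside 0.02 over all probe sets. None passed at an adjusted p of 0.05 in limma, and neither did any of the 29215 probe sets (0% called), the lowest adjusted p among the transporters being 0.102. At an unadjusted p under 0.05, 17 of the 60 were higher with C-peptide (28.3%), where 5.06% of all probe sets were, and 2 of the 60 were lower (3.33%), where 6.3% of all probe sets were. The C-peptide arrays all lay above both untreated arrays for 24 of the 60 (40.0%), beside 16.1% of all probe sets, and all below them for 6 of the 60 (10%), beside 13.8%. All 19 genes past the unadjusted threshold were without overlap. The 17 higher ones had differences from 0.50 to 1.15, or 1.41-fold to 2.22-fold. Of the 60 genes, 33 lay above the median intensity of all probe sets and 27 below it, and 15 of the 17 were among the 33, beside 6.4% of the probe sets brighter than the median. The 27 dim genes had a median difference of 0.04, beside 0.02 over all dim probe sets. At the unadjusted threshold 2 of them were higher (7.41%) and 0 lower, beside 5.06% and 6.3% of all probe sets.

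The count of 17 depended on the untreated arrays and on the scaling. It was 10 without untreated animal 1 and 11 without untreated animal 2, where 2.47% and 3.20% of all probe sets were called higher, and 17 to 20 without a C-peptide animal. Without untreated animal 1, Abcc2, Abcg2, Slc47a1, Slc17a5, Slc22a21, Slc22a24 and Slc22a25 no longer passed, at differences from 0.50 to 0.73, and neither did Slco3a1, at -0.57. Without untreated animal 2, Slc47a1, Slc22a6, Slco4c1, Abcb11, Slc17a5 and Slc22a21 no longer passed, at 0.44 to 0.75. Abcg2 and Slc22a21 were also lost without C-peptide animal 1, at 0.48 and 0.43, or C-peptide animal 3, at 0.56 and 0.40. In the values as deposited, where the median difference of all probe sets was -0.13, 5 were higher (8.33%, beside 0.661% of all probe sets) and 4 lower (6.38% of all). Taken relative to that median, the 17 genes were then at 0.41 to 1.07. The share of higher genes among all probe sets past the unadjusted threshold was 44.5% after quantile normalisation and 9.38% as deposited.

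**Figure D1:**
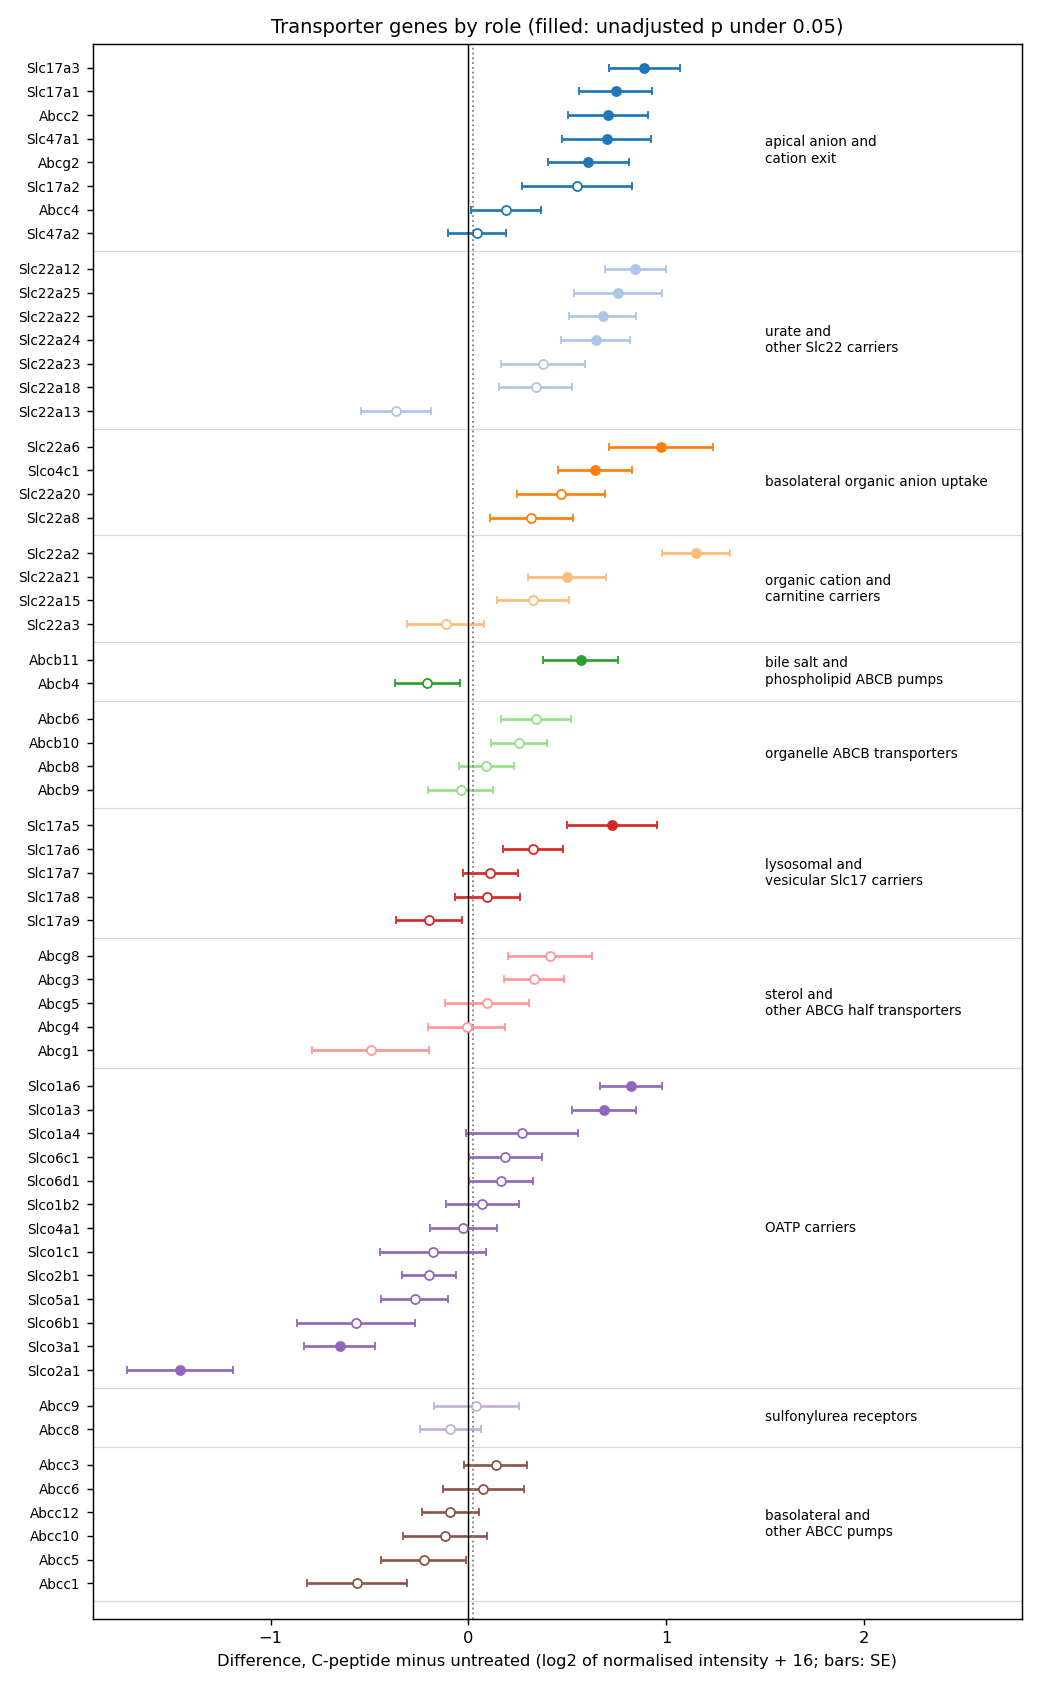
Difference between C-peptide and untreated arrays for each of the 60 transporter genes, in log2 of normalised intensity + 16, grouped by role; bars are the standard error, filled points have an unadjusted p under 0.05 and the dotted line is the median of all probe sets, 0.02. The filled points on the right are the 17 higher genes, up to Slc22a2 at 1.15, and those on the left are Slco3a1 at -0.65 and Slco2a1 at -1.46.

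The largest difference upwards of the whole set was that of a carrier for uptake of organic cations. Slc22a2, the cation carrier known as OCT2, was at 824, 803 and 1011 in C-peptide animals 1, 2 and 3 and at 427 and 347 in untreated animals 1 and 2. The groups lay far apart relative to their own ranges, at 879 ± 115 (SD, n = 3) against 387 ± 55.9 (SD, n = 2). This is a log2 difference of 1.15 ± 0.17 (2.22-fold, adjusted p = 0.102 in limma). Slc22a3, the cation carrier OCT3, lies next to Slc22a2 in the RefSeq gene order, was dim at 24.6 ± 8.02 and 27.6 ± 4.76, and differed by -0.11 (95% interval -0.57 to 0.34). Slc22a21, of the carnitine carriers, was at 273 ± 55.6 against 186 ± 11.2, a difference of 0.50 ± 0.20, and Slc22a15 at 0.33 ± 0.18 with overlapping groups.

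Among the carriers for basolateral uptake of organic anions, Slc22a6 was higher, while the groups overlapped for Slc22a8. Slc22a6, the anion carrier OAT1 that takes up para-aminohippurate, was at 1269, 999.9 and 1817 with C-peptide and at 770.1 and 574 untreated, a difference of 0.97 ± 0.26 (1.96-fold, adjusted p = 0.240). Slc22a8, the related carrier OAT3 and its neighbour in the gene order, was at 1950.3, 1559 and 2346 with C-peptide and at 1748 and 1357 untreated. The lowest C-peptide array, that of animal 2, fell between both untreated arrays, and the difference was 0.32 (95% interval -0.17 to 0.81). The difference between the differences of Slc22a8 and Slc22a6 was -0.65, at p = 0.1 in a two-sided exact permutation test, the smallest that 10 regroupings of the arrays allow. Slco4c1, a carrier of digoxin and uraemic toxins, was dim and stood at 77.5 ± 17.2 against 43.3 ± 2.88 (0.64 ± 0.19). Slc22a20, an anion carrier, was at 0.47 ± 0.22 with overlap.

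**Figure D2:**
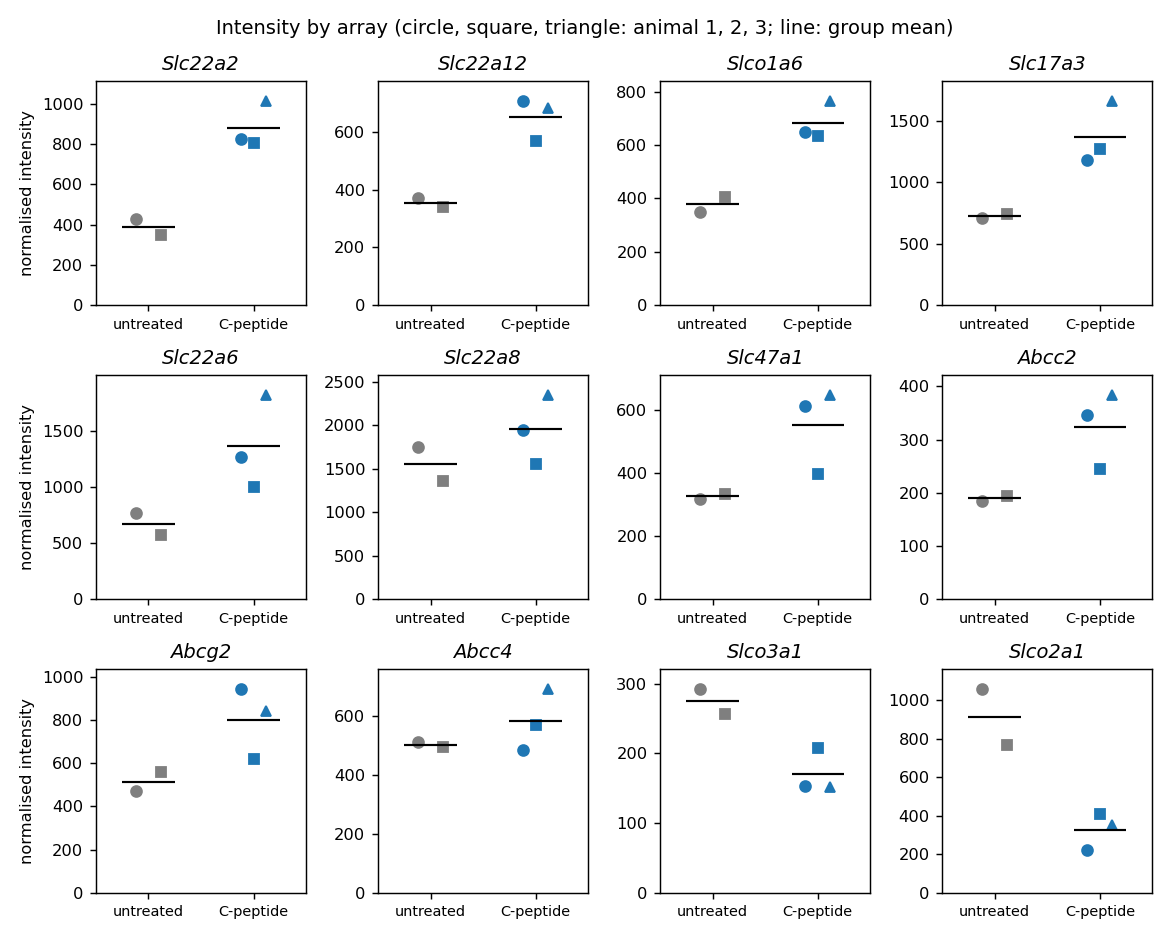
Normalised intensity (linear axis from 0) of 12 transporter genes on each array, with circles, squares and triangles for animals 1, 2 and 3 and a line at each group mean. The C-peptide points lie above both untreated points for Slc22a2, Slc22a12, Slco1a6, Slc17a3, Slc22a6, Slc47a1, Abcc2 and Abcg2 and below them for Slco3a1 and Slco2a1. For Slc22a8 and Abcc4 the ranges of the groups overlap.

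All 8 genes of apical exit, by which solutes leave the cell for the urine, had differences above 0, with a median difference of 0.65. At the unadjusted threshold 5 of them were higher, beside 5.06% of all probe sets and 6.4% of those brighter than the median. Slc17a3, a carrier of urate and organic anions, was at 1184, 1269.8 and 1656 with C-peptide against 706 and 743 (0.89 ± 0.18, 1.85-fold, adjusted p = 0.147). Slc17a1, a related carrier of the same gene cluster, was at 592, 432 and 612 against 305 and 325 (0.75 ± 0.19). Slc17a2, next to Slc17a3 in that cluster, was at 109, 111 and 213 against 81.3 and 97.4, without overlap but with C-peptide animal 3 far above the others (0.55 ± 0.28).

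Slc47a1, the proton-coupled cation exporter MATE1 that works in series with Slc22a2, was at 614, 395 and 647 with C-peptide and at 318 and 334 untreated (0.70 ± 0.22). C-peptide animal 2 was nearest to the untreated arrays, as it was for the pumps Abcc2 and Abcg2. Abcc2, the pump MRP2 for glutathione and glucuronide conjugates, was at 346, 244 and 383 against 185 and 194 (0.71 ± 0.20). Abcg2, the pump BCRP that also exports urate, was at 944, 620.0 and 841 against 472 and 557 (0.61 ± 0.20). In each of these 3 genes the C-peptide arrays ranged more widely than the gap between the group means.

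Abcc4, the cyclic nucleotide and urate pump MRP4, had overlapping groups in its brightest probe set. It was at 484, 568 and 691 with C-peptide and at 511 and 493 untreated, a difference of 0.19 (95% interval -0.23 to 0.61), and its other 2 probe sets gave 0.22 with overlap and 0.19 without, the latter at 374, 417 and 401 against 369 and 324. Slc47a2, the exporter MATE2, was dim at 24.4 ± 3.84 against 23.1 ± 0.571. The P-glycoprotein genes Abcb1a and Abcb1b, drug pumps whose symbols run on after the number and which the rule therefore leaves out, were looked at after the other values. Abcb1a was dim and at 73.5 ± 4.87 against 38.3 ± 9.66 (0.73 ± 0.16), and Abcb1b at 121 ± 12.6 against 83.3 ± 19.5 (0.48 ± 0.18), both without overlap.

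Among the remaining Slc22 carriers, 4 of 7 passed the unadjusted threshold, all higher, beside 5.06% of all probe sets. Their median difference was 0.64. Slc22a12, the urate reabsorption carrier URAT1, was at 706, 570.5 and 684 with C-peptide and at 372 and 339 untreated (0.85 ± 0.16, 1.80-fold, adjusted p = 0.132). Slc22a22, a prostaglandin carrier known as OAT-PG, was at 174 ± 29.5 against 102 ± 2.90 (0.68 ± 0.17). The anion carriers Slc22a24 and Slc22a25 were at 0.64 ± 0.17 and 0.76 ± 0.22. Slc22a18 and Slc22a23, carriers with little known cargo, were at 0.34 ± 0.19 and 0.38 ± 0.21. Slc22a13, a urate and nicotinate carrier, lay below 0 at -0.36 ± 0.18, with dim values of 22.4 ± 5.40 against 33.3 ± 6.52 that did not overlap.

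The OATPs other than Slco4c1 divided, with 6 of 13 above 0 and 7 below. Slco1a6 and Slco1a3, OATPs found in rat kidney, were higher. Slco1a6 was at 649.65, 632 and 763 against 351 and 405 (0.82 ± 0.16, 1.77-fold, adjusted p = 0.138), and Slco1a3 at 416, 517 and 541 against 302 and 292 (0.69 ± 0.16). The Slco1a genes are related members of 1 subfamily, and whether their probe sets also read one another was not tested. Slco1a4, an OATP of liver and brain vessels, was dim with overlapping groups (0.27 ± 0.29).

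Slco2a1, the prostaglandin transporter, had the largest difference downwards of the set. It was at 221, 407 and 354 with C-peptide and at 1058 and 769 untreated, every C-peptide array being below both untreated arrays (-1.46 ± 0.27, 2.75-fold lower, adjusted p = 0.132). Slco3a1, a widely expressed OATP, was at 153, 207 and 151 against 292 and 257 (-0.65 ± 0.18). For both genes C-peptide animal 2 was the nearest to the untreated arrays. Endothelial markers were lower on the same arrays, with 10 of 11 past the unadjusted threshold, beside 6.3% of all probe sets, and a median of -1.14. Their summed intensity was 8698 to 13545 with C-peptide and 20758 to 24512 untreated, and their part in the values of Slco2a1 and Slco3a1 was not tested. Slco2b1 (-0.20 ± 0.14), Slco5a1 (-0.27 ± 0.17) and Slco6b1 (-0.57 ± 0.30) also lay below 0, Slco6b1 with 1 untreated array, that of animal 1, at 35.6 and the other 4 arrays between 5.61 and 9.12. The remaining OATPs Slco1b2, Slco1c1, Slco4a1, Slco6c1 and Slco6d1 ranged from -0.18 to 0.19.

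Of the pumps with roles outside apical secretion, Abcb11 alone passed the unadjusted threshold. None of the 6 basolateral and other Abcc pumps did, and their median was -0.11. Abcc1, the pump MRP1, was at 52.6, 96.2 and 108 with C-peptide and at 133 and 126 untreated, without overlap (-0.56, 95% interval -1.16 to 0.03). It passed the unadjusted threshold in 6 of 12 alternative fits, among them those of the values as deposited, of centred arrays and with the animal number as a block. Abcc5 was at -0.23 ± 0.22 and Abcc6 at 0.08 ± 0.20. Abcc3, Abcc10 and Abcc12 were at 0.14, -0.12 and -0.09. The sulfonylurea receptors Abcc8 and Abcc9, regulatory subunits of ATP-sensitive potassium channels, were at -0.09 ± 0.15 and 0.04 ± 0.21. Abcb11, the bile salt pump of liver, was dim and at 54.8 ± 13.8 against 31.3 ± 5.01 (0.57 ± 0.19), but was not past the threshold in 3 of its 11 alternative fits: the values as deposited, the animal number as a block, and untreated animal 2 left out. Abcb4, a phospholipid pump of bile, was at -0.21 ± 0.17.

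Of the organelle transporters, Slc17a5 alone passed the unadjusted threshold. Abcb6, Abcb8 and Abcb10 of mitochondria were at 0.34 ± 0.18, 0.09 ± 0.14 and 0.26 ± 0.14, and the lysosomal peptide transporter Abcb9 at -0.04 ± 0.16. Slc17a5, the sialic acid exporter of lysosomes, was at 307, 181 and 286 with C-peptide and 145 and 147 untreated (0.73 ± 0.23). The vesicular glutamate carriers Slc17a6, Slc17a7 and Slc17a8 and the vesicular nucleotide carrier Slc17a9 had differences from -0.20 to 0.33. Among the Abcg transporters other than Abcg2 none of 5 passed, from Abcg1, a cholesterol exporter, at -0.49 ± 0.30 to Abcg8, of the sterol pump, at 0.41 ± 0.21, and Abcg5 and Abcg3 were at 0.09 ± 0.21 and 0.33 ± 0.15, with Abcg4 at -0.01.

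Across arrays, the sum over the transporters was highest in C-peptide animal 3 and lower in both untreated animals than in any C-peptide animal. Of the 60 genes, 28 had their highest value in C-peptide animal 3 (46.7%), beside 21.5% of all probe sets, and 4 (6.67%) in C-peptide animal 2, beside 14.3%. The lowest value was in an untreated array for 32 of the 60 (53.3%), beside 41.5% of all probe sets, and in a C-peptide array for 28. The summed intensity of the 60 genes was 15345, 13667 and 17948 in C-peptide animals 1, 2 and 3 and 11854 and 10898 in untreated animals 1 and 2. The 23 other proximal tubule markers kept the same order of arrays, at 64619, 58768 and 72947 against 53567 and 48548. Their median difference was 0.37 with 9 of 23 higher at the unadjusted threshold, beside 5.06% of all probe sets. Immune markers summed to 6587 to 8742 with C-peptide and to 9635 to 10684 untreated. Of the 17, 8 were lower at that threshold, beside 6.3% of all probe sets. Podocyte markers summed to 1035 to 1630 and to 2467 to 3112, with 2 of 5 lower. Most of that sum was Podxl, which endothelial cells also express, at 732, 1362 and 881 against 2699 and 2152. Synpo was also lower without overlap, at -0.65 ± 0.21, as was Ptpro, which was dim, at -0.36 ± 0.16. Nphs1 and Wt1, dim as well, had overlapping groups, at 0.11 ± 0.14 and -0.17 ± 0.24. Thick limb and distal tubule markers had a median of 0.23 with 1 of 8 higher, collecting duct markers 0.21 and stromal markers 0.00. The part of these markers in the transporter values was not tested, and fewer cells of a type and less RNA per cell cannot be told apart in bulk samples.

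**Figure D3:**
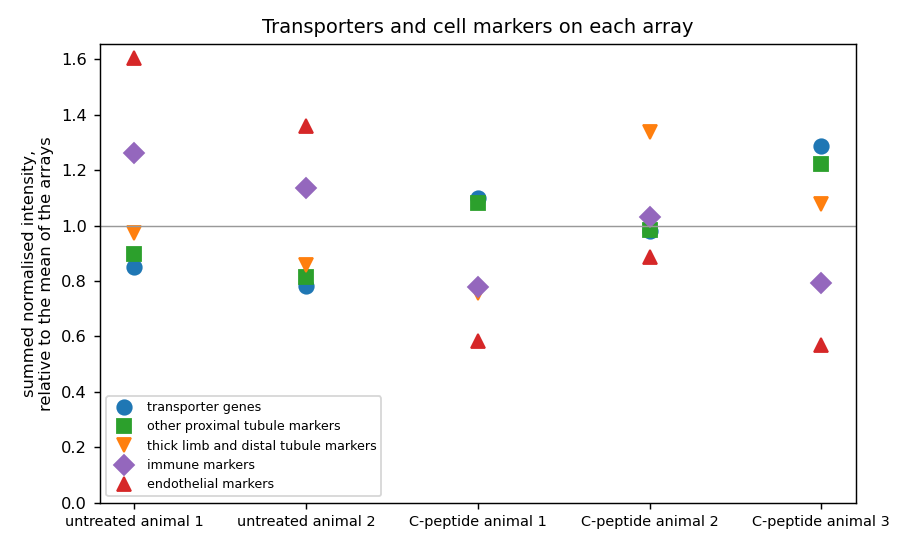
Summed normalised intensity on each array, divided by its mean over the 5 arrays, for the 60 transporter genes and for marker lists of the cell types. Transporters and the other proximal tubule markers lie together on each array and are lowest in both untreated animals, while endothelial and immune markers are highest there.

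The genes that serve these carriers were described from lists chosen together with the roles. Of 6 measured scaffolds and carriers that set the driving gradients, 4 were higher at the unadjusted threshold and 0 lower, with a median of 0.53. Over all probe sets 5.06% were higher and 6.3% lower. Slc13a2, an apical dicarboxylate carrier, was at 382, 328 and 464 with C-peptide and at 209.9 and 185 untreated (0.92 ± 0.18). Slc13a3, the basolateral dicarboxylate carrier that supplies Slc22a6 and Slc22a8 with their exchange substrate, was at 0.59 ± 0.21. Slc9a3, the sodium-proton exchanger, was at 0.59 ± 0.22, and Pdzk1, the scaffold that holds apical carriers in place, at 0.47 ± 0.18.

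Of 13 measured transcriptional regulators of drug transporters, 3 were higher and 0 lower at that threshold, with a median of 0.15. The shares over all probe sets were 5.06% and 6.3%. Of the 13, 7 had differences above 0 and 6 below. Without overlap, 5 were higher (38.5%) and 2 lower (15.4%), beside 16.1% and 13.8% of all probe sets. The 2 lower ones were Keap1, at -0.25 ± 0.14, and Nr3c1, at -0.26 ± 0.15. Hnf4g, a nuclear receptor of epithelia, was at 646, 539 and 521 against 302 and 326 (0.82 ± 0.15). Hnf4a, which drives proximal tubule genes, was at 1076, 919 and 1313 against 849 and 695, without overlap (0.50 ± 0.19). Nr1h4, the bile acid receptor FXR, was at 0.63 ± 0.20. Esr1, an oestrogen receptor, was at 0.35 ± 0.17 and did not pass the unadjusted threshold. As deposited, the median of these regulators was -0.05, while that of all probe sets was -0.13.

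**Figure D4:**
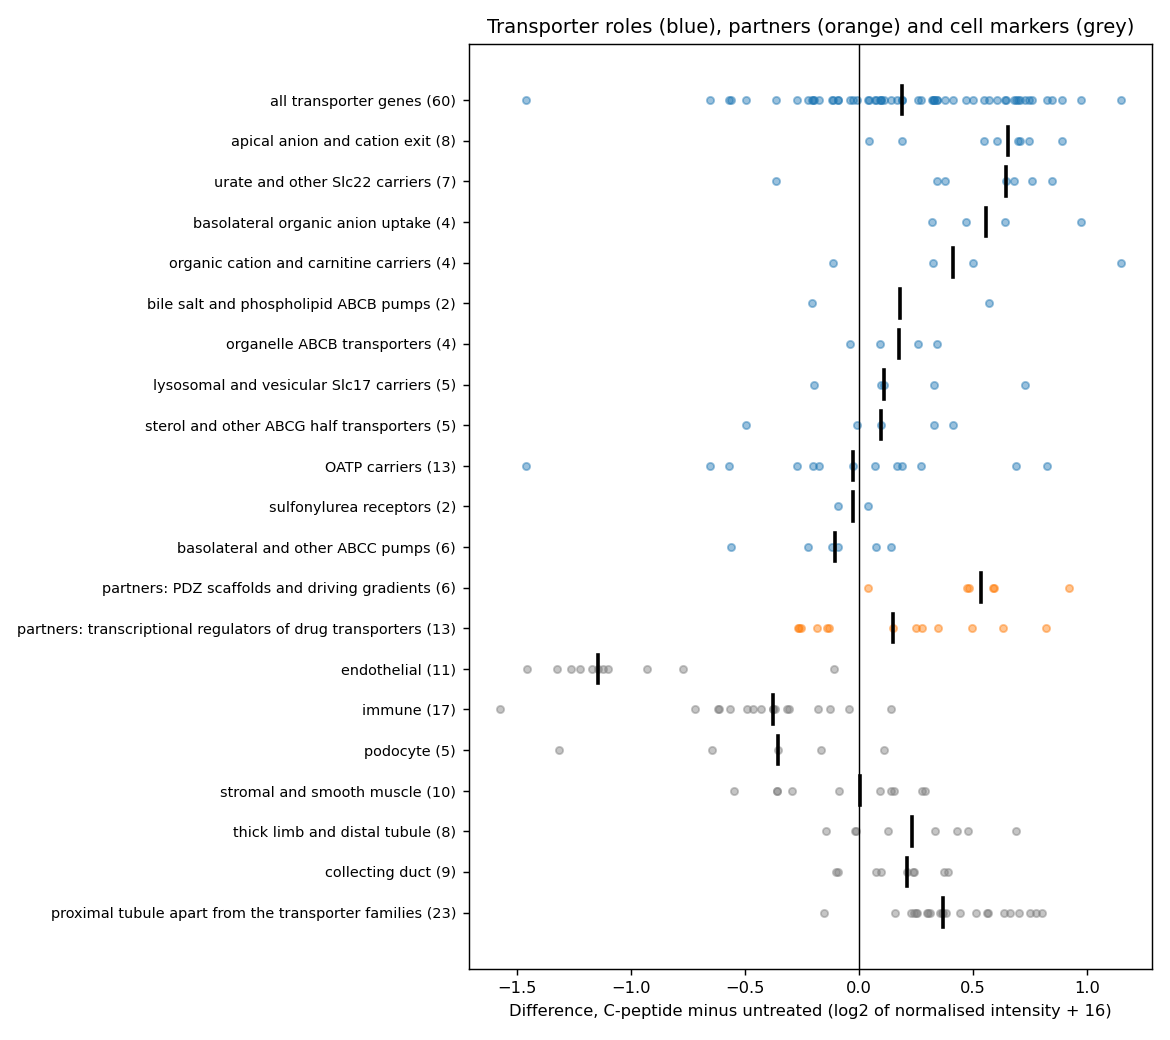
Differences between C-peptide and untreated arrays, in log2 of normalised intensity + 16, for transporter genes by role, for partner genes and for marker lists; points are genes, black ticks are medians and the number of genes is in brackets. Apical exit has the highest median of the roles, 0.65, and endothelial markers the lowest of all lists, -1.14.

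Genes next to each other in the RefSeq gene order of the rat assembly GRCr8 gave 11 pairs of transporters, in which the difference between their differences was computed. It was -0.14 both for Slc17a1 less Slc17a3 and for Slco1a3 less Slco1a6. In two-sided exact permutation tests the p-values were 0.6 and 0.4, and the lowest value after Benjamini-Hochberg adjustment over the 11 was 0.55. With 5 arrays no pair could reach a p under 0.1. Slc22a3 and Slc47a2 were near background, so their pairs with Slc22a2 and Slc47a1 are not compared in size.

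RefSeq promoter windows of assembly GRCr8, from 250 bases before to 50 after the annotated start, were matched for 49 of the 60 genes, and 5 are printed because they show the letters searched in genes of contrasting values. Binding letters of HNF1, a factor that drives many kidney transporters, were searched on both strands as GTTAAT. They were in 6 of the 49 windows (12.2%) and in 2024 of all 27457 (7.37%). Of the 17 higher genes 14 had a window, and 3 of these held the HNF1 letters: Slc22a24, Slc22a25 and Abcc2. Slc22a8, whose groups overlapped, held them as well, and Slc22a2, with the largest difference upwards, did not. The HNF4 letters CAAAGTCCA were in 1 of the 49 (2.04%), that of Abcb4, and in 0.375% of all. The antioxidant response letters TGANNNNGC were in 24 of the 49 (49.0%) and in 40.4% of all. Matches are letters in a window and not shown to be sites. In the lines below, capitals mark the HNF1 letters, read on either strand, which begin 123, 141, 100 and 93 bases before the start in the first 4.
Slc22a24, chr1:214394632-214394931, minus strand: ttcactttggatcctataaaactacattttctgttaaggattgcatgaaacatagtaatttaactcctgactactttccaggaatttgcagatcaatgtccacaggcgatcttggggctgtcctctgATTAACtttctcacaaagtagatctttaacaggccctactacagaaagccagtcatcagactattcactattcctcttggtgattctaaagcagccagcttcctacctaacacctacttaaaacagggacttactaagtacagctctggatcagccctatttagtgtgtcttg
Slc22a25, chr1:214862291-214862590, minus strand: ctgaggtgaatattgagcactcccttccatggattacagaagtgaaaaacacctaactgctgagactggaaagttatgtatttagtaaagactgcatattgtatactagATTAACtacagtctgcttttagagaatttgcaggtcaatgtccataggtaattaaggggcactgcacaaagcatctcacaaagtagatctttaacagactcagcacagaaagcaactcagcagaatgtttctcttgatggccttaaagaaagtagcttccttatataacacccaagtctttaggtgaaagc
Abcc2, chr1:252613625-252613924, plus strand: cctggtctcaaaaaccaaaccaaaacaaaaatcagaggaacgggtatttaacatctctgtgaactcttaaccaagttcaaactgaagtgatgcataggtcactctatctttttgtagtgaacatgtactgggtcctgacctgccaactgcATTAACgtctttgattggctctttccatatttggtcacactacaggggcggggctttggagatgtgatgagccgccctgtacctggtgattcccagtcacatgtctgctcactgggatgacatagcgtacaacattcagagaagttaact
Slc22a8, chr1:214927034-214927333, plus strand: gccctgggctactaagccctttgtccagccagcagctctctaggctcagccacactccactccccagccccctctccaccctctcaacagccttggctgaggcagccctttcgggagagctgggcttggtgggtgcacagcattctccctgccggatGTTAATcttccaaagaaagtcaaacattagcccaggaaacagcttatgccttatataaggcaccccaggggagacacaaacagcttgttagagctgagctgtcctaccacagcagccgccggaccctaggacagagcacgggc
Slc22a2, chr1:50710970-50711269, minus strand: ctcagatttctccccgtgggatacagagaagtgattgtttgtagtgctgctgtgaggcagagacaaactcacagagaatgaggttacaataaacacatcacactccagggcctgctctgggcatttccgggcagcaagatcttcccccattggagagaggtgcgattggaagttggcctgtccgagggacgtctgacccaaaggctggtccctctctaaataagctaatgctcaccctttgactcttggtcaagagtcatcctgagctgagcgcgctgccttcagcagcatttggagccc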

How the data were processed

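Total RNA of isolated proximal tubular cells was labelled with biotin for a 1-colour Affymetrix array by a whole-transcript protocol, per the labels. The authors deposited intensities on a linear scale, 1 per probe set and array, which the submitters' processing notes credit to PLIER and Affymetrix Expression Console 1.1. The sources used here do not state their background correction or scaling.

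The array medians differed, so intensities were quantile normalised and taken to log2(value + 16), without a filter. A limma 3.58.1 model (lmFit, eBayes; R 4.3.3) with no term but the group was fitted to all 29215 probe sets, with two-sided tests and Benjamini-Hochberg adjustment. The code was tested on simulated arrays. The number of arrays limits the precision. P-values measure the spread between the arrays of a group, which the labels give 1 animal each.

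The platform annotation paired 15310 probe sets with 1 symbol, 323 with several and 13582 with none. Probe sets with several symbols, 4 of them in these families, were not named. All 60 genes were found in RefSeq (GRCr8) under the same symbol. A further member of these families is not reported here.

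The members and lists were chosen with earlier results of these data known. The text names up to 10 transporters in each direction with the smallest p, the 3 brightest of each role, 4 partners a list with the smallest p and 3 markers. Others are named to complete a role or a list, after their values were seen. The alternatives were the values as deposited, centred arrays, pseudocounts of 1 and 64, a filter on dim probe sets, a trended and robust variance prior, the animal number as a block, leaving out each array, and averaging the probe sets of 1 gene.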

Additional observations from a re-analysis of the deposited data

How the results depend on the processing

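The number of all probe sets past adjusted p 0.05 in limma was 0 (3317 at an unadjusted p under 0.05). It stayed there with the replicate block, with averaged probe sets and with each C-peptide array left out. It was 52 in the values as deposited, 29 with centred arrays, 1 and 118 at pseudocounts of 1 and 64, 384 with a filter on dim probe sets, which tests 15365 of them, and 207 with a trended and robust prior. Slc22a2, Slc22a12, Slco1a6, Slc17a3 and Slco2a1 passed under both the filter and that prior, at adjusted p values of 0.0204 to 0.0355 and 0.0261 to 0.0497, and Slc22a2 at a pseudocount of 64 (0.0429). The same 5 were under an unadjusted p of 0.05 in each of the 12 fits run for single genes, and all 19 genes past it kept their sign in each fit that tested them.

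As deposited, 5 transporters were higher and 4 lower at an unadjusted p under 0.05, beside 0.661% and 6.38% of all probe sets. Their median difference was 0.0697, where the whole array had a median of -0.13. On that scale 12 transporters were higher and 7 lower without overlap, against 24 and 6 in the main fit. How many of all probe sets were without overlap there was not computed, so this change cannot be told from the shift of the whole array. The median difference of the transporters was 0.30 at a pseudocount of 1. With the filter it was 0.42, over 34 of the 60 genes, so it is not a median of the same set. Among the 34 was Slc22a20, dim on average and above the median intensity only in C-peptide animals 1 and 3. The 33 genes brighter than the median probe set had a median difference of 0.38 in the main fit. With the animal number as a replicate block, 17 were higher and 4 lower, beside 3.70% and 5.44% of all probe sets. Nothing says that the numbers pair the animals, so the main fit had no block. Deviations of equally numbered arrays correlated at -0.02 and 0.01. With 2 untreated arrays, their deviations mirror each other, so these values cannot decide the pairing. Leaving out 1 C-peptide array at a time gave 17 to 20 higher, beside 3.89% to 5.36% of all probe sets. It gave 2 to 4 lower, beside 5.21% to 6.56%. In these fits 8 to 10 were lower without overlap. Fewer arrays make that easier for any probe set, and the share of all probe sets was not computed. Without untreated animal 1 or 2 the median difference was 0.19 or 0.21. With Abcb1a, Abcb1b, Abcg3l1 and Abcg3l3 also taken, a choice made after the data were seen, 20 of 64 were higher. This is 31.25%, beside 5.06% of all probe sets, and Abcb1a, Abcb1b and Abcg3l3 were themselves among the 20. The cause of these changes was not tested. Genes near background, such as Slc47a2 and Slc22a3, allow no fine comparison.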
